A study of Mus musculus with 12 samples.

Results

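Cyclins and cyclin-dependent kinases (CDKs) drive a cell from G1 through DNA synthesis into mitosis. The group described here holds 10 genes picked by name, of 18194 genes that a probe set of the mouse array reads alone. They fall into 3 roles: the D-type cyclins Ccnd1, Ccnd2 and Ccnd3, the G1 to S genes Ccne1, Ccne2 and Cdk2, and the S phase and mitotic genes Ccna2, Ccnb2, Cdk1 and Cks2. The 10 genes are read by 24 probe sets, sets of short probes that together measure 1 transcript, and each gene is given by its probe set with the highest mean over all 12 arrays, called its lead probe set.

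The arrays compared 2 pairs of mouse adipocyte cultures in which the steroid receptor RNA activator (SRA), a non-coding RNA coactivator of nuclear receptors, was raised or lowered. ST2 cells, a marrow stromal line that can become fat cells, carried the retroviral vector pMSCV-SRA with a human SRA cDNA (ST2 SRA) or the empty pMSCV vector (ST2 control) and were harvested on day 4. 3T3-L1 cells, a mouse preadipocyte line, carried the hairpin vector pSuperior-shSRA-2 (shSRA) or the pSuperior-shcontrol vector (shControl) and were harvested on day 8. The sample labels call this 3T3-L1 control an empty vector, whereas the study's methods describe a control hairpin that is non-targeting. Each group had 3 arrays, which the labels call biological replicates. All 4 groups received the same MDIT cocktail of 0.5 mM isobutylmethylxanthine, 1 µM dexamethasone, 0.167 µM insulin and 5 µM troglitazone, so every culture, controls included, carried a vector and had been induced to differentiate. The overexpressing cells are a drug-selected population and the knockdown rests on 1 hairpin sequence, which limits both as models. Because line, day and vector differ together, a difference between ST2 and 3T3-L1 cannot be told apart from the day of harvest.

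D-type cyclins bind Cdk4 and Cdk6 in response to growth signals, cyclin E with Cdk2 starts DNA replication, cyclin A2 acts in S phase and G2, and cyclin B with Cdk1 takes the cell into mitosis. When preadipocytes receive a differentiation cocktail they divide for a few rounds, called mitotic clonal expansion, and then leave the cell cycle for good. S phase and mitotic members are transcribed mainly in dividing cells, whereas D-type cyclins follow growth signals. In RNA from a whole culture, fewer dividing cells and less RNA per cell cannot be told apart.

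Values are log2 expression values that the authors computed with robust multi-array averaging (RMA), so 1 unit is a doubling. Of 45101 probe sets, the 19068 whose variance across arrays exceeded 0.05 were tested with limma, and "called" means a Benjamini-Hochberg adjusted p under 0.05 over all of them. The lead probe sets of 6 members passed this filter (Ccnd1, Ccne2, Ccna2, Ccnb2, Cdk1 and Cks2), while those of Ccnd2, Ccnd3, Ccne1 and Cdk2 did not and have a value but no p in the main analysis. Passing the filter means that a probe set varied over the arrays, so shares of the tested members are not shares of all 10.

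Sra1, the mouse gene that the hairpin targets, read 9.46, 9.20 and 9.62 in shSRA arrays, against 11.86, 11.67 and 11.84 in shControl arrays. It was 2.36 log2 units lower in shSRA (SE 0.18, limma adjusted p = 5.58e-07), and every shSRA array lay below every shControl array, as the labels have it. In the ST2 cells the same mouse probe set read 11.13, 11.13 and 11.44 with SRA, against 11.14, 10.67 and 11.24 in controls, a difference of 0.22 (SE 0.18, adjusted p = 0.484). The vector carries the human cDNA, so this mouse probe set is not a check of overexpression. One array stood apart when each array was set against the mean of the others in its own group. At the median of 14314 bright probe sets (mean of at least 8), ST2 control replicate 2 read 0.43 log2 units lower. The other 11 arrays lay between -0.07 and 0.24. The highest were ST2 control replicates 1 and 3 (0.24 and 0.18), whose reference includes replicate 2.

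Promoter windows of 300 bases (250 before the start site and 50 after it) were taken from RefSeq, build GRCm38.p6, to show what the members that moved together look like at their starts. Windows were found for 6 of the 10 members, 7 windows in all because Ccnd3 has 2 starts, and Ccna2, Ccnd1, Ccnd2 and Ccne2 are named only. Capitals mark matches to 3 kinds of motif, searched on both strands, that regulators of cell cycle genes are known to bind. These are the cell cycle homology region TTTGAA, the box CCAAT, and E2F sites spelled TTTCCCGC, TTTCGCGC, TTTGGCGC or TTTGCCGC. No 2 matches overlapped in any of the 7 windows. The mitotic genes Ccnb2 (chr9:70421505-70421804, minus strand), Cdk1 (chr10:69352863-69353162, minus strand) and Cks2 (chr13:51644982-51645281, plus strand) are shown with the G1 to S gene Cdk2 (chr10:128705002-128705301, minus strand) beside them, each printed along its gene's strand.
Ccnb2: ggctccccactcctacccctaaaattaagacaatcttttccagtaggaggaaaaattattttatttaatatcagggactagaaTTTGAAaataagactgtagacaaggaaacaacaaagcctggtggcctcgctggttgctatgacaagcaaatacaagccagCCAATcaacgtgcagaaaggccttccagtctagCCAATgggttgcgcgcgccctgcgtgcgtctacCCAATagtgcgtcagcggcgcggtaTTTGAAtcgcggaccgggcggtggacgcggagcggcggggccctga
Cdk1: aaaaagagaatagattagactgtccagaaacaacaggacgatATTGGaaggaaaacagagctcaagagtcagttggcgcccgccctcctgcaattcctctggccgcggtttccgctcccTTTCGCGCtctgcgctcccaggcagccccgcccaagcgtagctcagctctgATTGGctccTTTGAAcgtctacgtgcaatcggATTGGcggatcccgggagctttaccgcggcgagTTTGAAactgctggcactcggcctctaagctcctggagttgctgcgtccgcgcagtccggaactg
Cks2: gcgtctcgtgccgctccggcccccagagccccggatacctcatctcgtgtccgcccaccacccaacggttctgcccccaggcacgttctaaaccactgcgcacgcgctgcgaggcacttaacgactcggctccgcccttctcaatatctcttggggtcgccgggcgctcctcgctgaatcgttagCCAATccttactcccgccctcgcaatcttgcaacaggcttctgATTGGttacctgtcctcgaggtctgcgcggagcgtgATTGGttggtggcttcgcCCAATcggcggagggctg
Cdk2: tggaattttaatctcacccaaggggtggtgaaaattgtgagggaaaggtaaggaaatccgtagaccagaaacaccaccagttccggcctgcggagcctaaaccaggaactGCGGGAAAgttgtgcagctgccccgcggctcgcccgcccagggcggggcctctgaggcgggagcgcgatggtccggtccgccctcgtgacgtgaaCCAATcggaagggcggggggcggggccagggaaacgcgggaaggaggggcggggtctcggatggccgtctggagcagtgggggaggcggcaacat

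Ccnb2 holds 3 CCAAT boxes in one orientation, with first bases at positions -87, -54 and -21 from the start site, and 2 cell cycle homology regions at -167 and 5. Cdk1 holds 3 CCAAT boxes, all on the opposite strand, 2 cell cycle homology regions at -71 and -15, and 1 E2F site. Cks2 holds 4 CCAAT boxes, 2 on each strand, and neither of the other motifs, and Cdk2 holds 1 CCAAT box and 1 E2F site. Of the 32851 windows in the table, 17.9% hold the cell cycle homology region, 37.4% a CCAAT box and 2.26% an E2F site. Ccnb2 and Cdk1 hold both of the first 2 motifs, as do 6.95% of all windows, and Cdk1 holds all 3, as do 0.119%. The Ccne1 window and one Ccnd3 window hold none of the motifs and the other Ccnd3 window holds 1 CCAAT box. A match is a run of letters and was not tested as a binding site.

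In ST2 adipocytes, 5 of the 10 members were called lower with SRA overexpression and none higher. These were the 4 S phase and mitotic genes and one D-type cyclin, Ccnd1. By comparison, limma called 5.65% of all tested probe sets lower and 2.33% higher. The same 5 of the 10 members had all ST2 SRA arrays below all ST2 control arrays, as was so for 9.03% of the tested probe sets. This reads the same arrays as the calls and is not separate support.

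Ccnb2 encodes cyclin B2, a partner of Cdk1 in mitosis. Its lead probe set read 7.11, 5.97 and 6.33 in ST2 SRA arrays, against 9.22, 8.15 and 8.64 in ST2 control arrays. The groups were more than 1 log2 unit apart at their nearest arrays, and replicate 1 was the highest array in both groups. Ccnb2 had the largest fall of the 10 members, 4.58-fold (log2 fold change -2.20, SE 0.25, limma adjusted p = 1.08e-05).

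Ccna2 encodes cyclin A2, which acts with Cdk2 in S phase and with Cdk1 in G2. It read 7.57, 6.84 and 7.11 with SRA, against 9.53, 8.86 and 9.03 in controls. The fall was 3.91-fold (log2 fold change -1.97, SE 0.20, adjusted p = 3.65e-06), and its other probe set fell by 1.84.

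Cdk1, the kinase that drives entry into mitosis, read 8.97, 8.59 and 8.90 with SRA, against 10.29, 9.65 and 9.96 in controls. It fell 2.21-fold (log2 fold change -1.15, SE 0.18, adjusted p = 0.000362). Cks2 encodes a small protein that binds Cdk1 and other CDKs and helps them recognise phosphorylated substrates. Its lead probe set read 8.57, 8.33 and 8.63 with SRA, against 10.31, 8.99 and 9.68 in controls. The Cks2 control arrays were spread over more than 1 unit, the widest spread of the 4 genes, with replicate 2 lowest, yet the groups did not overlap. Cks2 fell 2.22-fold (log2 fold change -1.15, SE 0.23, adjusted p = 0.0029), and its other probe set fell by 1.24 (adjusted p = 0.000597).

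Of the D-type cyclins, Ccnd1 was the one called. Ccnd1 read 9.76, 9.31 and 9.75 in ST2 SRA arrays, against 11.35, 10.83 and 11.22 in ST2 control arrays. It fell 2.88-fold (log2 fold change -1.53, SE 0.21, adjusted p = 8.94e-05), and all 3 of its probe sets were called, with log2 fold changes between -1.62 and -1.53. Its relatives Ccnd2 and Ccnd3, which serve the same kinases, gave a different picture. The lead probe set of Ccnd2 read 13.03, 12.80 and 12.92 with SRA, against 13.30, 12.71 and 13.16 in controls, and the groups overlapped. The difference was -0.14 (95% interval -0.43 to 0.16). Of the 7 Ccnd2 probe sets 3 were tested and none was called, and the log2 fold changes of all 7 lay between -0.43 and -0.11. The 3 tested ones gave -0.43, -0.42 and -0.26 (limma unadjusted p = 0.034, 0.025 and 0.237, adjusted p = 0.184, 0.154 and 0.493). With a replicate block in both lines their adjusted p was 0.0507, 0.0517 and 0.264. Ccnd3 read 10.36, 10.25 and 10.40 with SRA, against 10.83, 10.22 and 10.64 in controls, where replicate 2 lay below every SRA array. That difference was -0.23 (95% interval -0.53 to 0.07).

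The G1 to S members gave no call. Ccne1, which encodes cyclin E1, read 8.27, 8.33 and 8.07 with SRA, against 8.06, 8.09 and 8.20 in controls, a difference of 0.10 (95% interval -0.17 to 0.38). Its relative Ccne2 read 6.40, 6.03 and 6.52 with SRA, against 7.13, 6.11 and 6.41 in controls, where replicate 1 alone was high. The Ccne2 difference was -0.23 (SE 0.21, limma adjusted p = 0.539). Cdk2, the kinase partner of cyclins E and A, read 8.66, 8.80 and 8.65 with SRA, against 8.83, 8.39 and 8.66 in controls, a difference of 0.08 (95% interval -0.20 to 0.36). These intervals do not reach a halving of Ccne1, Ccne2 or Cdk2 (a log2 fold change of -1), a size that the estimates of all 5 called members exceeded. Without ST2 control replicate 2, the array that stood apart, the 5 called members stayed called with log2 fold changes between -2.46 and -1.30, while Ccne2 gave -0.45 (adjusted p = 0.161) and, untested, Ccnd3 gave -0.40, Ccnd2 -0.31, Ccne1 0.09 and Cdk2 -0.04, a change of sign. Without the variance filter Ccnd2, Ccnd3, Ccne1 and Cdk2 were tested too, and none was called.

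**Figure D1:**
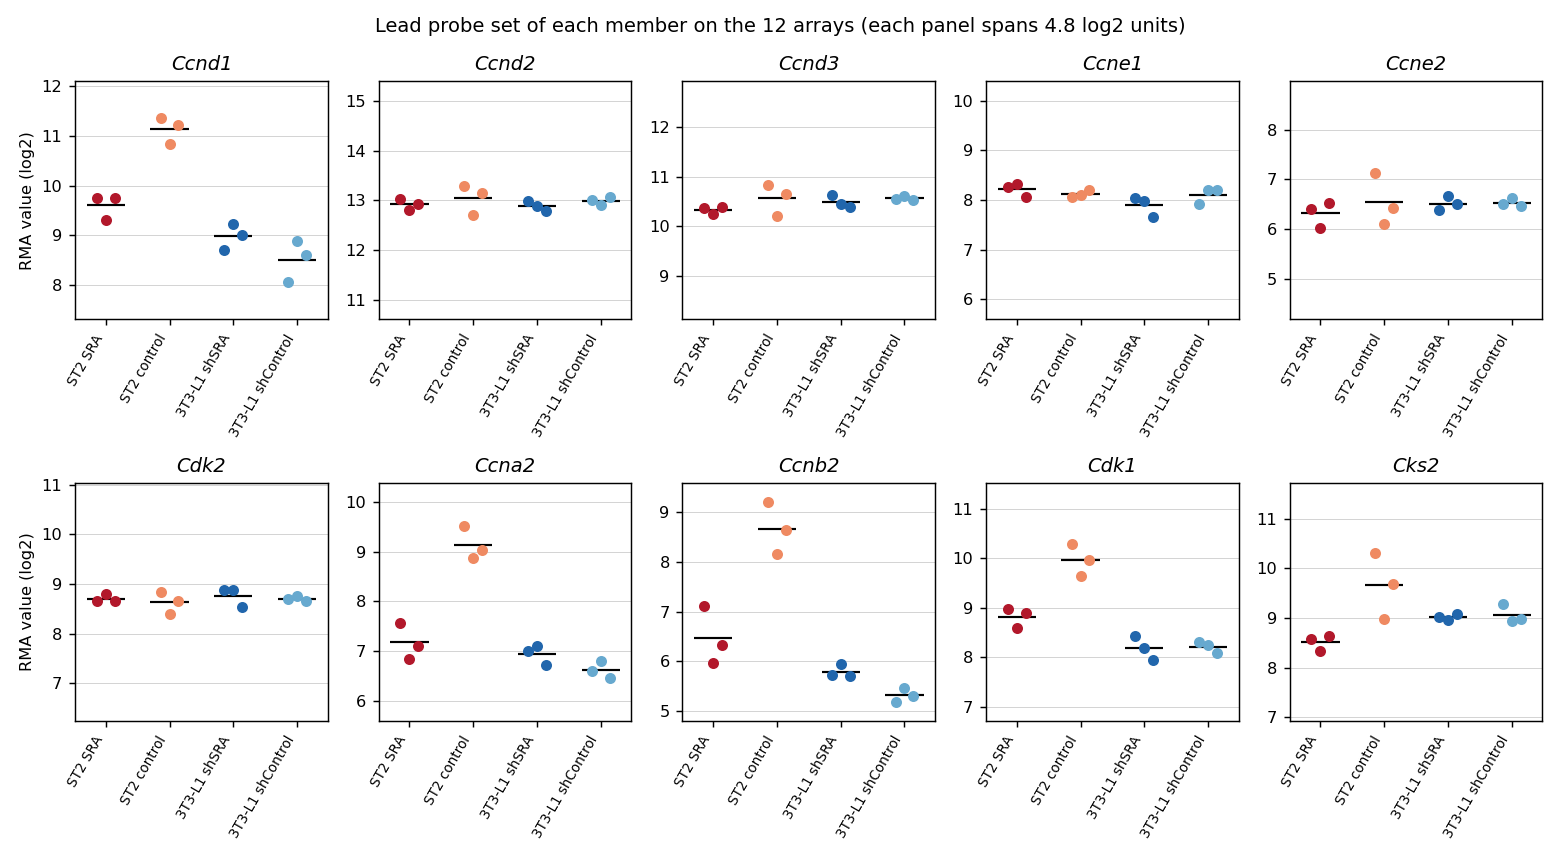
RMA log2 value (y axis) of the lead probe set of each member on the 12 arrays, by group (x axis), with 1 point per array and a line at the group mean. Ccnd1, Ccna2, Ccnb2, Cdk1 and Cks2 lie lower on all 3 ST2 SRA arrays than on all 3 ST2 control arrays, and Ccnd2, Ccnd3, Ccne1, Ccne2 and Cdk2 have overlapping groups.

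In 3T3-L1 adipocytes, SRA knockdown gave no called change in any of the 10 members. Of the 6 that were tested, 1 had an unadjusted p under 0.05 in limma without a replicate block. Over all tested probe sets only 14, or 0.0734%, were called (6 higher and 8 lower). That count moved with the processing, to 1 and 3 with arrays centred on bright probe sets, 62 and 39 with a replicate block in both lines, 8 and 12 with a block in the 3T3-L1 arrays alone, and 46 and 44 by the nested F procedure, none of which called a member. Ccnd1 was the member with that p. It read 8.70, 9.24 and 9.01 in shSRA arrays, against 8.05, 8.88 and 8.59 in shControl arrays, and the groups overlapped. Its log2 fold change was 0.47 (SE 0.21, limma unadjusted p = 0.0386, adjusted p = 0.9998). Between same-numbered arrays, which deviated together in this line, Ccnd1 was higher in shSRA by 0.64, 0.36 and 0.42. With a replicate block in both lines its limma unadjusted p was 0.00325 (adjusted p = 0.25). With a block in 3T3-L1 arrays alone it was 0.0177 (adjusted p = 0.9998).

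Ccnb2 read 5.72, 5.94 and 5.70 in shSRA arrays, against 5.18, 5.46 and 5.30 in shControl arrays. These values lay between the lower quartile (4.92 to 5.02) and the median (6.46 to 6.53) of the 3T3-L1 arrays, so the signal was low. Ccnb2 was the one member whose lead probe set lay higher on every shSRA array, as was so for 5.49% of the tested probe sets. The difference was 0.47 (SE 0.25, 95% interval -0.06 to 1.00, limma adjusted p = 0.9998). Ccna2 read 7.0, 7.09 and 6.72 with the SRA hairpin, against 6.59, 6.79 and 6.45 with the control vector, a difference of 0.32 (SE 0.20, 95% interval -0.10 to 0.75). Between same-numbered arrays Ccna2 was higher in shSRA by 0.40, 0.30 and 0.27 and Ccnb2 by 0.55, 0.47 and 0.40, and neither was called with a block. The limma unadjusted p of Ccna2 was 0.0355 with the block in both lines and 0.126 with it in 3T3-L1 arrays alone. For Ccnb2 these were 0.00315 and 0.0800. The other Ccna2 probe set did not overlap between the groups and differed by 0.42 (adjusted p = 0.9998).

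Cdk1 and Cks2 gave values near 0 in this comparison. Cdk1 read 8.43, 8.19 and 7.95 in shSRA arrays, against 8.32, 8.24 and 8.08 in shControl arrays (log2 fold change -0.02, 95% interval -0.41 to 0.36). Cks2 read 9.03, 8.95 and 9.09 in shSRA arrays, against 9.28, 8.94 and 8.98 in shControl arrays (log2 fold change -0.04, 95% interval -0.53 to 0.44). Of the remaining members, Ccnd2 differed by -0.10 (95% interval -0.40 to 0.20), Ccnd3 by -0.08 (-0.37 to 0.22), Ccne1 by -0.22 (-0.49 to 0.06), Ccne2 by -0.02 (-0.46 to 0.42) and Cdk2 by 0.06 (-0.21 to 0.34), all with overlapping groups. No interval reached a change of 1 log2 unit except that of Ccnb2, whose upper end was at 1.00.

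**Figure D2:**
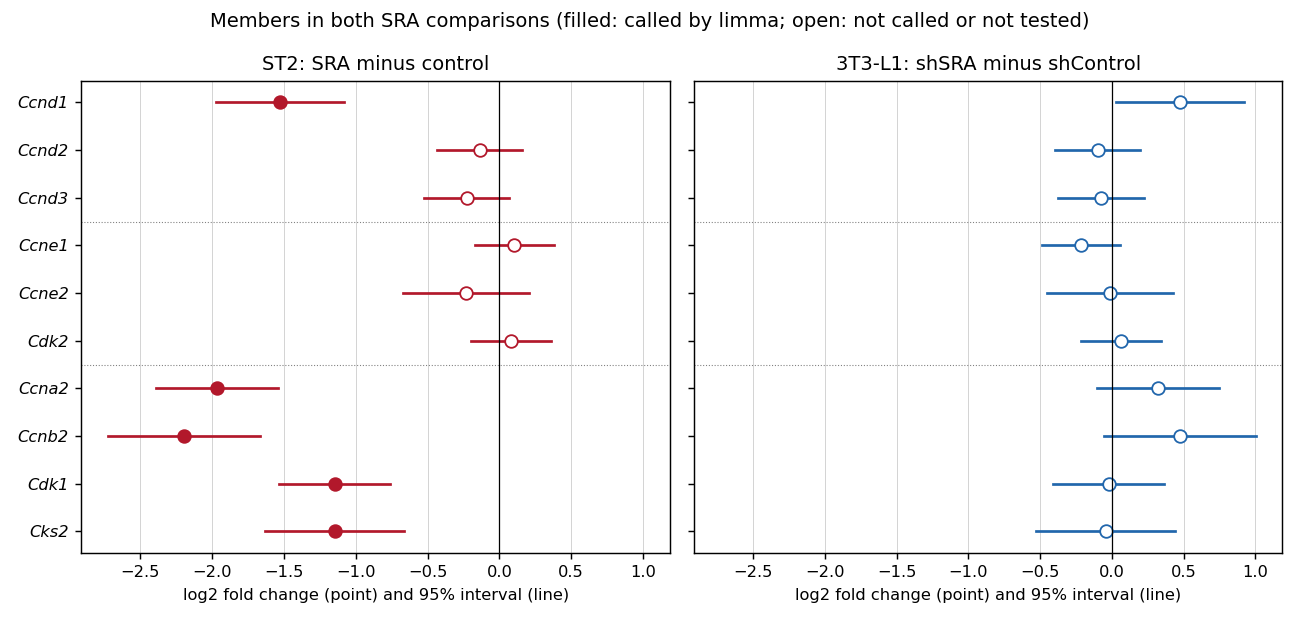
Log2 fold change of each member (x axis) with its 95% interval, for SRA against control in ST2 cells (left) and shSRA against shControl in 3T3-L1 cells (right). Dotted lines part the D-type, G1 to S and S phase and mitotic members, and the 5 filled points, all on the left between -2.20 and -1.15, are the called ones.

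SRA gain in ST2 cells and SRA loss in 3T3-L1 cells were compared by testing the difference of the 2 log2 fold changes. Opposite responses to a gain and a loss also give a large difference, so a call does not show that the lines respond to SRA differently. For Cdk1 and Cks2, with 3T3-L1 values of -0.02 and -0.04, the difference mostly repeats the ST2 values of -1.15. The lead probe sets of 4 of the 10 members were called lower, with 2.07% of the tested probe sets called in that direction. The difference was -2.67 for Ccnb2 (SE 0.36, limma adjusted p = 0.000253), -2.29 for Ccna2 (SE 0.29, adjusted p = 0.000163), -2.0 for Ccnd1 (SE 0.30, adjusted p = 0.000695) and -1.12 for Cdk1 (SE 0.26, adjusted p = 0.0235). For Cks2 it was -1.11 (SE 0.33, adjusted p = 0.0982) on the lead probe set and -1.42 (adjusted p = 0.00998) on the other one, so the Cks2 call depended on the probe set. The Cdk1 call was lost without ST2 control replicate 1, ST2 SRA replicate 2, shSRA replicate 1, shSRA replicate 2 or shControl replicate 3 (log2 differences between -1.13 and -0.96, adjusted p of at most 0.101). A called difference here does not show a change in 3T3-L1 cells, where no member was called.

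Levels of the members also differed between the control cultures of the 2 lines. This comparison uses the same 3 ST2 control arrays as the SRA comparison, so the 2 sets of values are not independent. In ST2 control cells, 5 members were called higher than in 3T3-L1 shControl cells and none lower. Over all tested probe sets, 26.2% were called higher and 37.4% lower, so a call between the lines was common. Ccnb2 was 3.36 log2 units higher, Ccnd1 2.63, Ccna2 2.53 and Cdk1 1.75 (SE between 0.18 and 0.25, limma adjusted p of at most 1.36e-07). All 4 had every ST2 control array above every shControl array, as was so for 25% of tested probe sets. In either direction, the groups did not overlap for 62.9% of tested probe sets. Cks2 was 0.60 higher (SE 0.23, adjusted p = 0.031) with overlapping groups, and this call was lost without the variance filter (adjusted p = 0.0725). It was also lost without ST2 control replicate 1 or 3 or shControl replicate 2 or 3, where the log2 fold changes lay between 0.27 and 0.59, and without ST2 control replicate 2 the value was 0.93. One dim Ccnd3 probe set was 0.53 higher (adjusted p = 0.0055), while the lead probe set of Ccnd3 was not tested and had a 95% interval of -0.30 to 0.30.

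Across the 4 groups, Ccnd1, Ccna2 and Ccnb2 had the same order of mean levels, with ST2 control highest, then ST2 SRA, shSRA and shControl. Ccnb2 was the one member in which no neighbouring groups overlapped. For Ccna2, ST2 SRA and shSRA overlapped, and so did shSRA and shControl. For Ccnd1 shSRA and shControl overlapped. Cdk1 was highest in ST2 control cells and next in ST2 SRA cells, and its 3T3-L1 groups overlapped. On its lead probe set Cks2 was highest in ST2 control cells and lowest in ST2 SRA cells, below every 3T3-L1 array. On its other probe set the ST2 SRA arrays (7.98, 7.82 and 7.92) overlapped shControl, where replicate 3 read 7.89. The group means of Ccnd2, Ccnd3, Ccne1, Ccne2 and Cdk2 spanned between 0.14 and 0.33 log2 units, and all neighbouring groups overlapped.

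Averaged by role, each gene taken as its deviation from its own mean over the 12 arrays, the S phase and mitotic members lay at 0.08, -0.54 and -0.23 in ST2 SRA arrays, against 1.86, 0.94 and 1.36 in ST2 control arrays. The same average was -0.43, -0.43 and -0.61 in shSRA arrays, against -0.63, -0.61 and -0.77 in shControl arrays. Thus the ST2 control arrays were the ones that stood high, and the values of the ST2 SRA arrays overlapped those of the shSRA arrays. The D-type cyclins gave 0.05, -0.21 and 0.02 in ST2 SRA arrays, against 0.82, 0.25 and 0.67 in ST2 control arrays. Of these 3 genes, only Ccnd1 had groups that did not overlap in ST2 cells. The G1 to S members gave 0.02, -0.03 and -0.01 in ST2 SRA arrays, against 0.25, -0.22 and 0.01 in ST2 control arrays, with overlap.

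**Figure D3:**
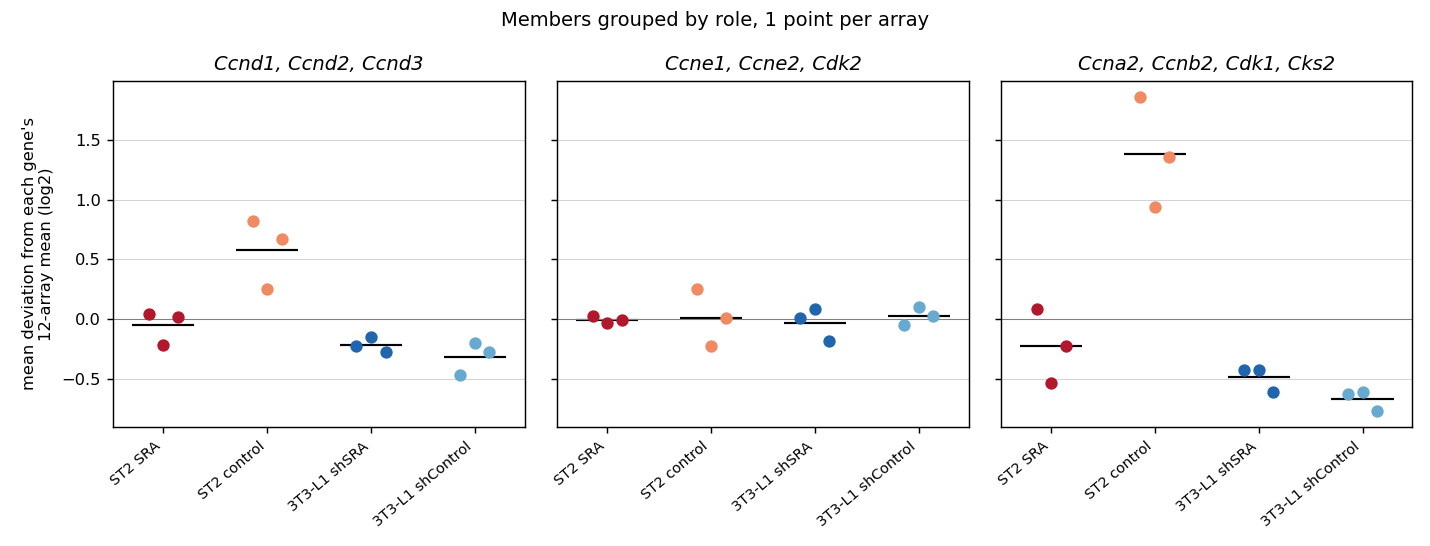
Mean deviation of the members of each role from their 12-array means (y axis, log2) on each array, by group (x axis), with 1 point per array and a line at the group mean. For the S phase and mitotic members the ST2 control arrays lie between 0.94 and 1.86 and all other arrays at or below 0.08, whereas the G1 to S members stay between -0.22 and 0.25 on all 12 arrays.

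Other genes of the pathway were read from lists of named genes, and counts and medians of a list are over its genes on the array, tested or not. Of 8190 genes tested by their lead probe set, 2.83% were called higher and 6.86% lower in ST2 SRA cells. The median log2 fold change was 0.07 over these genes and 0.06 over all genes on the array. Mitosis markers moved in one direction: 19 of 20 were called lower, none higher, and the median over the 20 was -1.05. The log2 fold change was -2.63 for Cenpf, which encodes a kinetochore protein, -2.25 for Birc5, which encodes the survivin subunit of the chromosomal passenger complex, -2.08 for the checkpoint kinase gene Bub1 and -1.83 for the kinetochore gene Nuf2. Of 19 S phase markers, 7 were called lower and none higher (median -0.44), among them the replicative helicase gene Mcm5 (-1.86), the nucleotide synthesis genes Rrm2 (-1.75) and Tk1 (-1.51), and Uhrf1 (-1.52), which keeps DNA methylation through replication.

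Partners, inhibitors and other regulators of the members were not all tested, whereas the shares given above are over tested genes. Tested were 4 of the 7 other cell cycle cyclins, CDKs and CKS genes, 15 of 31 transcriptional and atypical ones and 7 of 8 CDK inhibitors. So were 6 of 8 CDK phosphatases and kinases, 12 of 20 RB, E2F and DREAM factors, 17 of 23 cyclin destruction genes and 14 of 16 growth signal inputs. Among the 7 other cell cycle cyclins, CDKs and CKS genes, only Ccnf, which encodes cyclin F, was called (-0.84, adjusted p = 0.00386), and the median was -0.16. The kinases that pair with D-type cyclins, Cdk4 (-0.29, adjusted p = 0.362) and Cdk6 (-0.16, adjusted p = 0.624), were not called. Of 31 transcriptional and atypical cyclins and CDKs, 1 was called higher (Ccnl2, 0.56) and 1 lower (Ccnyl1, -0.84), with a median of 0.16. One of 8 CDK inhibitors was called, Cdkn3, which encodes a phosphatase that acts on CDKs and fell by 0.61, and the median of the list was -0.03. Cdkn1a, which encodes p21, differed by 0.02 (adjusted p = 0.959) and Cdkn1b, which encodes p27, by -0.03 (adjusted p = 0.945). Of 8 CDK phosphatases and kinases, Plk1 (-0.93) and Chek1 (-0.61) were called lower and none higher, with a median of -0.22.

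Of 20 RB, E2F and DREAM factors, E2f7 (-1.30) and E2f8 (-0.66), both repressors of E2F targets, were called lower, and the retinoblastoma gene Rb1 (0.62) was called higher (median -0.05). Of 23 genes for the destruction of cyclins, 4 were called lower and none higher (median 0.16): Ube2c (-2.21), Cdc20 (-1.38), Skp2 (-0.76) and Fbxo5 (-0.69). Ube2c and Cdc20 serve the ubiquitin ligase that marks cyclins A and B for destruction in mitosis, and are themselves transcribed in dividing cells. Of 16 growth signal inputs to D-type cyclins, the Fos family gene Fosl1 (-1.64) and Ets1 (-0.90) were called lower, none was called higher, and the median was -0.09. Myc differed by -0.05 (adjusted p = 0.947). In 3T3-L1 cells the medians of these 9 lists lay between -0.02 and 0.12, beside 0.01 over the tested genes and -0.01 over all genes on the array. In the main fit none of the genes of these lists was called. With a replicate block in both lines, 1 of them, the proliferation marker Mki67, was called higher in shSRA (adjusted p = 0.022), by 0.49, 0.82 and 0.78 between same-numbered arrays, and with the block in 3T3-L1 arrays alone it was not (adjusted p = 0.891).

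**Figure D4:**
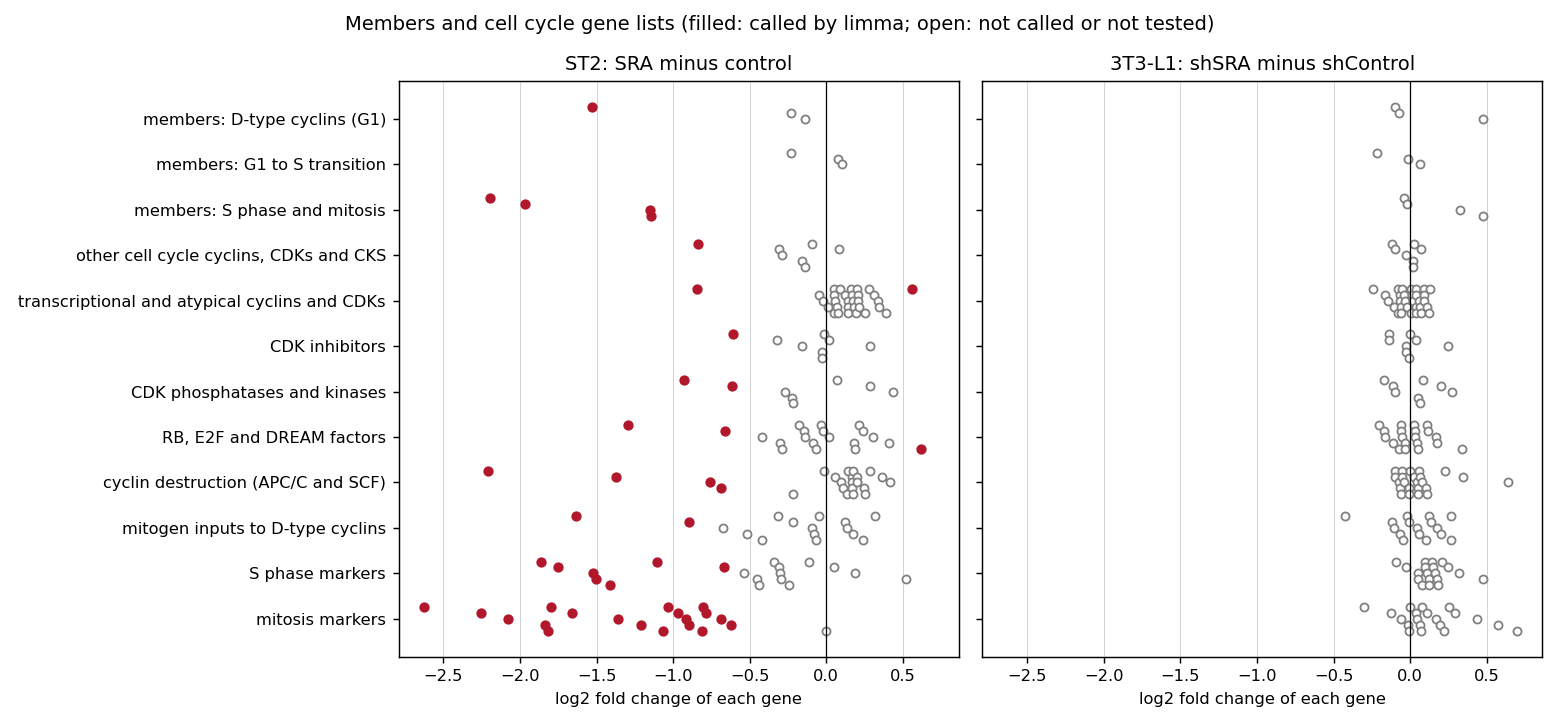
Log2 fold change (x axis) of every gene of the member roles and of the 9 other cell cycle lists (rows) in ST2 cells (left) and 3T3-L1 cells (right), with 1 point per gene and called genes filled. On the left 19 of 20 mitosis markers and 7 of 19 S phase markers are called lower, and on the right no gene is called.

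Markers of cell state moved beside the members in ST2 cells. Of 13 preadipocyte and fibroblast markers, 6 were called lower with SRA and none higher (median -0.38), and the mean level of the list was 9.03 to 9.26 in ST2 SRA arrays, against 9.66 to 9.93 in ST2 control arrays. Of 12 adipocyte markers, 2 were called higher, the glucose transporter gene Slc2a4 and the fatty acid carrier gene Cd36, and none lower (median 0.37), with mean levels of 11.74 to 11.88 in ST2 SRA arrays, against 11.28 to 11.66 in ST2 control arrays. Of 10 macrophage and blood cell markers 4 passed the variance filter and none was called in either SRA comparison, and of 8 endothelial markers none passed it, so they were not tested. Macrophage marker means were 6.26 to 6.33 in ST2 SRA arrays, against 6.17 to 6.37 in ST2 control arrays, and endothelial marker means were 5.15 to 5.21 in ST2 SRA arrays, against 5.14 to 5.37 in ST2 control arrays. In 3T3-L1 cells the lists gave 1 call, Lum, lower in shSRA (with a block in both lines also S100a4, higher in shSRA, adjusted p = 0.00727, but not with a block in 3T3-L1 arrays alone, adjusted p = 0.315), and adipocyte marker means were 12.75 to 12.85 in shSRA arrays, against 12.65 to 12.78 in shControl arrays. Preadipocyte and fibroblast marker means were 10.73 to 10.86 in shSRA arrays, against 10.85 to 11.14 in shControl arrays. The part of differentiation state in the fall of the members was not tested.

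Genes whose values ran nearest to each member over the 12 arrays were found by the root mean square difference of values centred on their means, among the genes tested. Nearest to Ccnb2, which varied by 1.33 around its own mean, were Ube2c (0.14), Birc5 (0.20) and Mki67 (0.24), both of the last being mitosis markers. Nearest to Ccna2 were Bub1 (0.15), the natriuretic peptide receptor gene Npr3 (0.15) and the mitotic kinase gene Pbk (0.18). Nearest to Cdk1 were Socs3 (0.13), a cytokine signalling suppressor, the kinetochore gene Spc25 (0.14) and the mitotic kinase gene Aurka (0.17). Ccnd1 ran nearest to the fibroblast marker S100a4 (0.19), the centrosome kinase gene Nek2 (0.25) and Uhrf1 (0.26), an S phase marker. Nearest to Cks2 were Shcbp1 (0.14), the collagen processing gene Pcolce (0.18) and Bnc2 (0.18). The other 5 members varied little. Pdp1 was nearest to Ccnd2 (0.11, where Ccnd2 itself varied by 0.16) and to Ccnd3 (0.08 of 0.17), Spink12 to Ccne1 (0.11 of 0.17) and Mitd1 to Ccne2 (0.10 of 0.26). Pagr1a was nearest to Cdk2 at 0.141, more than the 0.137 by which Cdk2 varied around its own mean, so none of the genes searched ran closer to Cdk2 than a flat line. All of these were measured on the same 12 arrays in 4 groups, so the likeness is a description.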

How the data were processed

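Total RNA from 12 cultures was hybridised to Affymetrix mouse whole-genome arrays. The deposited table holds log2 values that the authors made with RMA (affy and limma are named in the submitters' processing notes, versions not given in the sources used here), so background correction and quantile scaling were already done, and scanner values were not used here. Probe sets were named from the platform annotation. Of 45101 probe sets, 34958 had 1 gene symbol, 932 several and 9211 none, and members were read only from probe sets with 1 symbol.

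From these values a limma model (version 3.58.1, R 4.3.3) was fitted to all 4 groups after a filter on variance above 0.05, as in the study's methods. Each of 4 contrasts was tested with moderated statistics and Benjamini-Hochberg adjustment at 0.05 over 19068 probe sets, and intervals are 95% intervals, those of members that missed the filter coming from the fit without it. The code was checked on simulated data. Figures were drawn with matplotlib 3.10.9. No depth can be given for arrays, and 3 arrays a group limit the precision. No 2 arrays held identical values. Where cultures are not separate, p-values measure only the spread between these arrays.

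The members and lists were chosen with earlier results of these data known. Named genes were all 10 members, Sra1, up to 4 genes with the largest change among those called in each cell cycle list, and the 3 genes nearest to each member. Genes outside this rule (Myc, Cdk4, Cdk6, Cdkn1a, Cdkn1b, Lum, Cd68, Slc2a4 and Cd36) were named after their values were seen.

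Alternatives were each line fitted alone, no filter, another quantile scaling, centring on bright probe sets, array weights, a replicate block, the nested F procedure, other choices of probe set, and each array left out in turn. A block in 3T3-L1 arrays alone and quantile scaling without ST2 control replicate 2 were added after seeing the data. Same-numbered 3T3-L1 arrays deviated together (correlations of deviations from the group means 0.587, 0.586 and 0.382) and were taken as paired by this check, not by the labels. Same-numbered ST2 arrays (0.039, 0.268 and 0.527) were not.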

Additional observations from a re-analysis of the deposited data

Results flagged for a closer look

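The ST2 SRA effect minus the 3T3-L1 shSRA effect was called lower for 4 members by their lead probe set (limma, adjusted p under 0.05). Cks2 was called by its other probe set alone. Of the tested probe sets, 2.07% were called in that direction. A gain and a loss that move a gene in opposite directions also give a difference, so a call does not show unlike responses to SRA. The difference of the log2 fold changes was -2.67 for Ccnb2, -2.29 and -2.26 for the 2 probe sets of Ccna2, and -2.0, -1.92 and -1.91 for the 3 probe sets of Ccnd1. It was -1.12 for Cdk1 and -1.42 for 1 of the 2 probe sets of Cks2. Line, vector and day of harvest differ together between the pairs and cannot be told apart.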

How the results depend on the processing

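The counts of called members were all within 1.5 times their main value: 5 lower in ST2 SRA cells in each of 22 alternatives, 0 in 3T3-L1 cells in 23, 3 to 5 lower in the difference of effects in 21, and 4 to 6 higher in ST2 control cells in 19. Of 850 alternative fold changes of members, 41 changed sign, none of them from a value called in the main analysis. Of these, 27 belonged to members with no test in the main analysis (main values between -0.10 and 0.08, alternatives between -0.10 and 0.53). The alternative of 0.53, Ccnd3 between controls on its highest-variance probe set, was itself called higher (limma adjusted p = 0.0055). The other 14 belonged to tested members, as follows. In 3T3-L1 cells Ccne2 turned to 0.0104 after another quantile scaling and 0.0106 when that left out ST2 control replicate 2, and Cks2 turned to 0.00921 with array weights, 0.187 with its highest-variance probe set and 0.0728 as a mean over probe sets. With 1 array left out at a time, 3T3-L1 values ranged between -0.0900 and 0.0533 for Ccne2, -0.11 and 0.0650 for Cks2, and -0.14 and 0.10 for Cdk1, and Ccne2 between -0.45 and 0.0567 in ST2 cells, -0.44 and 0.0718 in the difference and -0.27 and 0.25 between controls. The cause was not tested.

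A replicate block changed no member call in either SRA comparison (5 lower in ST2 cells, 0 in 3T3-L1 cells). With the block in both lines Cks2 joined the calls in the difference of effects (-1.11, adjusted p = 0.00308), making 5, and with the block in 3T3-L1 arrays alone there were 4. In ST2 cells the block in both lines also added calls in the lists. Adipocyte markers called higher went from 2 to 4. S phase markers went from 0 higher and 7 lower to 1 higher and 9 lower. Growth signal inputs called lower went from 2 to 3. The block also added Cd68, a macrophage marker, higher in ST2 SRA cells (limma adjusted p = 0.0384). Over all probe sets the ST2 calls were 445 higher and 1077 lower, against 1377 and 1646 with the block, 1239 and 2699 with array weights, 759 and 1523 after quantile scaling, 182 and 812 with ST2 fitted alone, 206 and 802 by nested F, 224 and 770 without ST2 SRA replicate 1, and 133 and 618 without ST2 SRA replicate 2. In 3T3-L1 cells 6 higher and 8 lower became 62 and 39 with the block in both lines, 46 and 44 by nested F, 23 and 37 with weights, 1 and 3 after centring, 2 and 2 with 3T3-L1 fitted alone, and 3 and 3 without the filter or after quantile scaling. Without ST2 control replicate 1 the ST2 split was 984 higher and 846 lower. In the difference of effects 47 higher and 395 lower became 332 and 1468 with weights, 218 and 797 with the block in both lines, 124 and 605 after quantile scaling, 85 and 975 without ST2 control replicate 2 and 18 and 222 without ST2 SRA replicate 2. Having 3 arrays a group limits what could be called.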
